A study of Mus musculus with 5 samples.

Results

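The 39 genes described here encode proteins that copy DNA or carry the cell through mitosis. They were listed by name and function, 20 as S-phase genes (origin licensing, the replication fork and deoxynucleotide supply) and 19 as mitotic genes (cyclins and kinases, checkpoint, anaphase, spindle and chromosome proteins and 1 transcription factor). Each gene stands for the brightest of the probe sets that the array annotation gives to that symbol alone, and all 39 were measured, out of 18193 genes with such a probe set. The values come from the dorsal skin of 5 mice at postnatal day 23 (P23), with the RNA of each mouse on its own Affymetrix mouse expression array. The study asked which transcripts differ in *Clock* mutant skin just before a delay of the hair growth cycle is seen. The *Clock* mutant group held 2 mice, replicate 1 male and replicate 2 female, and the control group 3 female wild-type (WT) littermates. The labels name no treatment for either group, and the authors staged all 5 skins by histology as telogen, when follicles rest between growth phases. That staging is the authors' own, and markers of growing follicles, given below, were uneven over these mice. The labels give neither the *Clock* allele nor whether it was homozygous, and the study's methods state a C57BL/6J background for its *Clock* mice. The mutation is carried in the whole animal, so the arrays do not separate the skin's own clock from that of other tissues.

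CLOCK pairs with BMAL1 to drive the transcription of circadian target genes. Dividing cells switch on replication genes as they enter S phase, largely through E2F factors, and switch on mitotic genes later, in G2, through factors that bind CCAAT boxes and the cell cycle genes homology region (CHR). In skin, dividing cells lie mainly in the basal layer of the epidermis and, once a follicle starts to grow, in the hair matrix. RNA came from whole skin, so fewer dividing cells and less RNA per cell cannot be told apart in any value below.

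Promoter sequences are given because genes of each class had similar orders of signal over the mice, as described below. RefSeq windows of 300 bases (250 before and 50 after the transcription start, assembly GRCm38.p6) were held for 31 of the 39 genes, 17 S-phase and 14 mitotic, and not for *Mcm4*, *Gins1*, *Gins2*, *Ccna2*, *Aurkb*, *Kif20a*, *Tpx2* and *Foxm1*. An E2F-like word (TTTCCCGC, TTTGGCGC, TTTGCCGC or TTTCGCGC, either strand) stood in 8 of the 17 S-phase windows, in 1 of the 14 mitotic windows (*Cdk1*) and in 2.6% of 27025 genes. A CHR-like word (TTTGAA or TTCGAA or TTTAAA, either strand) stood in 7 of 17, in 13 of 14 and in 31.9% of genes. CCAAT, on either strand, stood in 10 of 17, in 12 of 14 and in 41.1% of genes. The E-box CACGTG, the word that CLOCK and BMAL1 are known to bind, stood in 3 of the 17 S-phase windows (*Tyms*, *Fen1* and *Lig1*), in 0 of the 14 mitotic windows and in 8.09% of genes. Where a gene had several starts it was counted if any window held the word, and a match is a description of letters, not of binding. The 170 bases before the start are printed 5′ to 3′ for genes whose window starts at the outermost start of the gene. They are the 2 S-phase genes that hold E2F-like words there, and the 3 mitotic genes with the largest difference between the mutant mice among those that hold CCAAT and CHR-like words there. Capitals mark E2F-like, CCAAT and CHR-like words on either strand, and in the *Mcm6* promoter an overlapping pair of E2F-like words forms 1 longer run.
Mcm6 promoter (chr1:128359706-128359875, minus strand): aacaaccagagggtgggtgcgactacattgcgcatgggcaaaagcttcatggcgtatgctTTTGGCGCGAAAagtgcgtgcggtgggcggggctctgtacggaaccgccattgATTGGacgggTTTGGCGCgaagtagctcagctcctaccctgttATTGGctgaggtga
Rfc3 promoter (chr5:151651209-151651378, minus strand): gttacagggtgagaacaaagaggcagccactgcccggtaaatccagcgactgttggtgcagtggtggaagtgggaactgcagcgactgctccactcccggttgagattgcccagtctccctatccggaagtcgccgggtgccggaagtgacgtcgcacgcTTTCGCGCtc
Plk1 promoter (chr7:122159265-122159434, plus strand): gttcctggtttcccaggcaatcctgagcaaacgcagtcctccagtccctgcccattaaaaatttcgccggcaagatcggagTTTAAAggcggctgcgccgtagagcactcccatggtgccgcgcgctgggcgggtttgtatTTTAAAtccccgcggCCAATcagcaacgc
Ccnb2 promoter (chr9:70421555-70421724, minus strand): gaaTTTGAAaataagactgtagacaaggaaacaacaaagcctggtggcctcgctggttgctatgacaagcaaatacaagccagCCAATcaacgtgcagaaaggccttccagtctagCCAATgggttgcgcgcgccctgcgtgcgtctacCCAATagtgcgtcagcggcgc
Cdk1 promoter (chr10:69352913-69353082, minus strand): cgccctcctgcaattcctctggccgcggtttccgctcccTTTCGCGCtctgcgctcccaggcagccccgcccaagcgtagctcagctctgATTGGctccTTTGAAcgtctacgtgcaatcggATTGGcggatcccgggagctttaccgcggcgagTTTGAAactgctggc

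No S-phase or mitotic gene differed between *Clock* mutant and WT skin at an adjusted p under 0.05 (limma across all tested probe sets, Benjamini-Hochberg adjustment). All 39 genes passed the filter on dim probe sets, 0 of 39 were called (also 0 in a test in the manner of Cyber-T), and the share called over all 27022 tested probe sets was 0.0888%. At an unadjusted p under 0.05 there was 1 gene of 39, *Ccna2*, against 10.8% of all probe sets. Signals of the 2 genotypes did not overlap for 1 gene, *Gins1*, which was higher in both mutant mice. For 0 genes were both mutant mice below every WT mouse. Non-overlap in those directions was found for 12.8% and 15.1% of all probe sets. The log2 difference (mean log2 signal of the mutant mice minus that of the WT mice) was above 0 for 33 genes, below 0 for 5 and 0.00 for *Aurkb*. Its median was 0.12 over the S-phase genes (range -0.19 to 0.69) and 0.14 over the mitotic genes (-0.13 to 0.40), against -0.02 over all tested probe sets, of which 46.5% were above 0. The smallest adjusted p of the 39 was 0.454. The 95% interval of the difference lay within -1 and 1 on the log2 scale for 36 genes, and reached past 1 for *Gins2*, *Cdc6* and *Kif20a*.

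**Figure D1:**
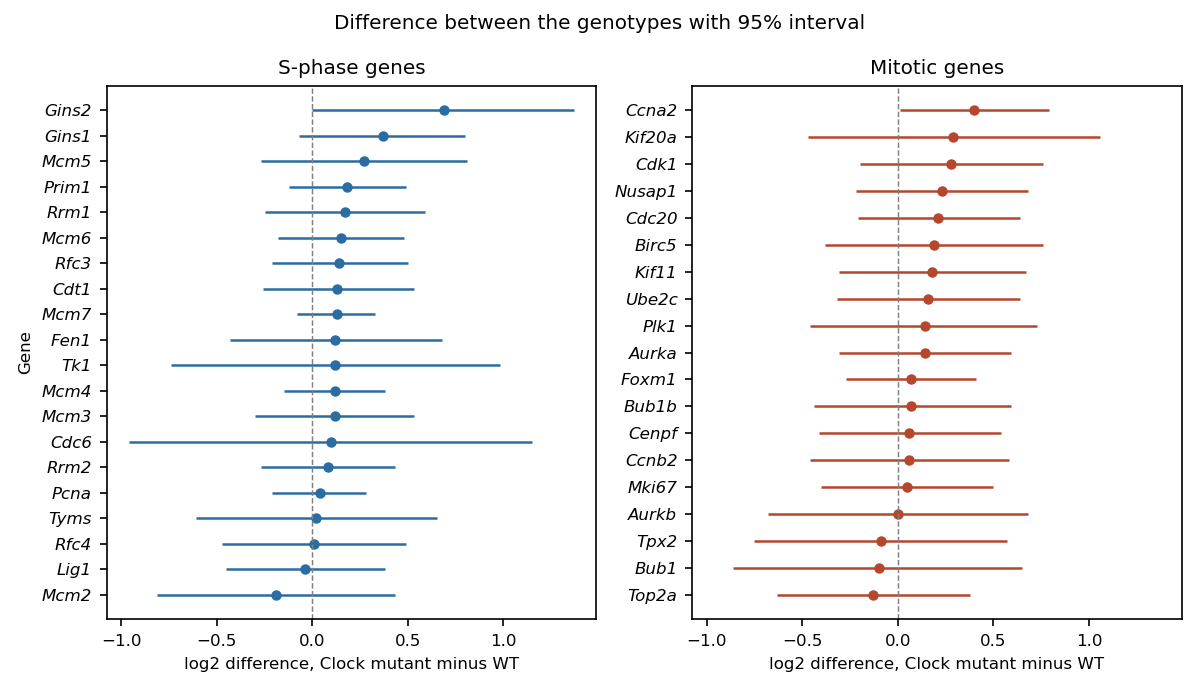
Log2 difference of each gene, Clock mutant (n = 2) minus WT (n = 3), with its 95% interval from limma. Points lie between -0.19 and 0.69, and the intervals cross or touch 0 except that of Ccna2, which starts at 0.01.

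In the median, differences between the mutant mice were larger than those between the genotypes. All 39 genes had a higher signal in *Clock* mutant replicate 1 than in replicate 2, by a median of 0.52 on the log2 scale (1.43-fold, range 0.19 to 1.32) for the S-phase genes and 0.84 (1.79-fold, 0.29 to 1.31) for the mitotic genes. Over all tested probe sets the median of this difference was -0.03 with an SD of 0.37, and 45.7% were above 0. A difference over the S-phase median was found in 3.83% of probe sets and one over the mitotic median in 1% of them. The range over the 3 WT mice had a median of 0.35 for the S-phase genes and 0.26 for the mitotic genes. For some S-phase genes it exceeded the difference between the mutant mice, as for *Gins2* (1.14 against 0.47) and *Mcm2* (1.01 against 0.52). With 2 mutant mice a difference inside the group has no test.

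By their brightest probe sets, the S-phase and mitotic genes ordered the 5 mice differently. Mitotic signals were highest in mutant replicate 1 for 19 of 19 genes and lowest in mutant replicate 2 for 17 of 19, so that the mutant mice lay on either side of all WT mice for 17 of 19 genes, against 4.55% of all probe sets. S-phase signals were highest in mutant replicate 1 for 17 of 20 genes, but lowest in mutant replicate 2 for only 5, and the mutant mice enclosed the WT mice for 4 of 20. Instead, mutant replicate 1 and WT replicate 1 held the highest pair of signals for 18 of 20 S-phase genes and for 13 of 19 mitotic genes, against 9.94% of probe sets. Over all probe sets, 23.5% were highest in mutant replicate 1 and 16.5% lowest in mutant replicate 2. The median deviation from the WT mean over the S-phase genes was 0.35 and -0.12 in mutant replicates 1 and 2 and 0.22, -0.10 and -0.08 in WT replicates 1, 2 and 3. For the mitotic genes it was 0.55 and -0.33 in the mutant mice and 0.12, -0.05 and -0.08 in the WT mice. Each WT mouse is part of the WT mean it is compared with, which draws its deviation toward 0, unlike those of the mutant mice. Members of a class were measured in the same 5 RNA samples and are not replicates of one another.

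This order held under other scalings of the arrays. The mutant mice enclosed the WT mice for 17 mitotic and 4 S-phase genes after quantile normalization, and for 16 and 4 after median centring. Median centring moved mutant replicate 1 upward as a whole, to a median deviation of 0.12 over all probe sets, and the share of probe sets highest in that mouse to 41.9%. Beside that shift, its median deviation after centring was 0.49 over the S-phase genes and 0.70 over the mitotic genes.

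**Figure D2:**
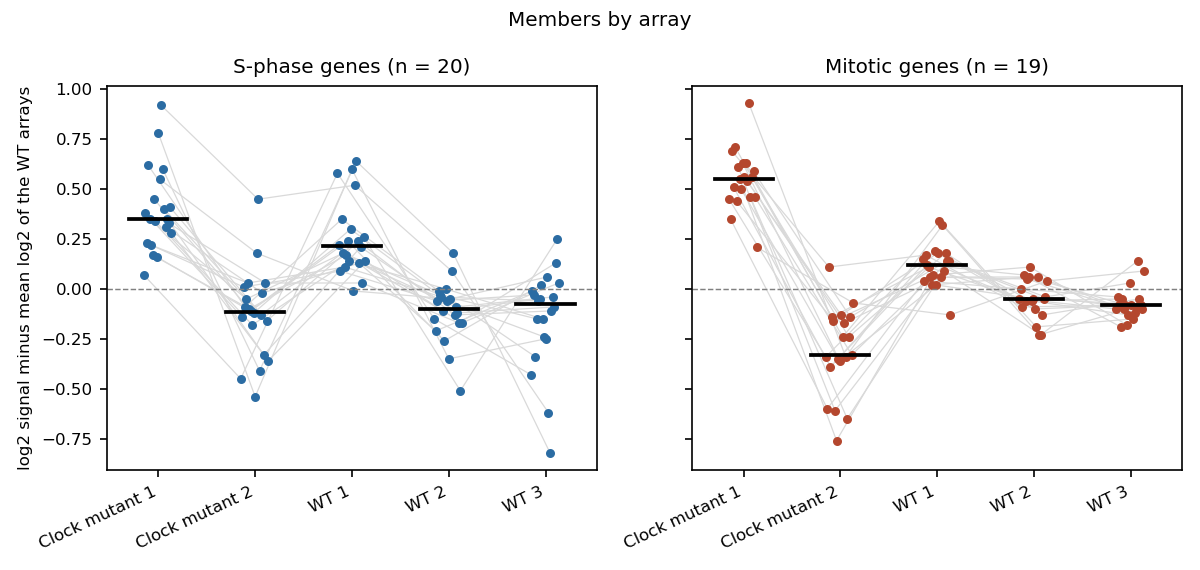
Log2 signal of each gene minus the mean log2 of the 3 WT arrays, by array, for the 20 S-phase genes and the 19 mitotic genes. Grey lines join the values of a gene and black bars are medians. The mitotic genes of Clock mutant 1 lie above and those of Clock mutant 2 mostly below the WT arrays, while the S-phase medians are high in Clock mutant 1 (0.35) and WT 1 (0.22).

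Among the licensing genes, which load and activate the replicative helicase at origins, the minichromosome maintenance subunits *Mcm2* to *Mcm7* had log2 differences between -0.19 and 0.27. *Mcm2* (probe set 1434079_s_at) had signals of 564 and 392 in mutant replicates 1 and 2 and 801, 483 and 398 in WT replicates 1, 2 and 3, a log2 difference of -0.19 (SE 0.27, adjusted p = 0.835). WT replicate 1 was the highest array and the groups overlapped throughout. *Mcm5* (probe set 1436808_x_at), another helicase subunit, gave 726 and 444 in the mutant mice and 602, 468 and 374 in the WT mice, a log2 difference of 0.27 (SE 0.24, adjusted p = 0.713). Here mutant replicate 1 was highest and WT replicate 3 lowest. The other helicase subunits had log2 differences of 0.12 for *Mcm3*, 0.12 for *Mcm4*, 0.15 for *Mcm6* and 0.13 for *Mcm7*, with adjusted p from 0.647 to 0.851.

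*Gins1* and *Gins2* encode subunits of the GINS complex, which joins the helicase when an origin fires, and had the largest log2 differences of the S-phase genes. *Gins1* (probe set 1452598_at) had signals of 209 and 161 in the mutant mice and 141, 138 and 148 in the WT mice, a log2 difference of 0.37 (SE 0.19, adjusted p = 0.524). It was the gene whose genotypes did not overlap, and its WT signals spanned only 0.11 on the log2 scale. For *Gins2* (probe set 1428713_s_at) the signals were 369 and 267 against 280, 208 and 127, a log2 difference of 0.69 (SE 0.30, adjusted p = 0.463). WT replicate 1 lay above mutant replicate 2, and the WT signals spanned 1.14.

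*Cdc6* and *Cdt1* encode the factors that load the helicase onto origins. *Cdc6* (probe set 1417019_a_at) had signals of 91.8 and 45.4 in the mutant mice and 94.6, 68.3 and 34.3 in the WT mice, a log2 difference of 0.10 (SE 0.47, adjusted p = 0.958). The WT arrays alone covered the whole range, and 2 of its 5 signals were under the mean signal of 56.7 that the filter required. *Cdt1* differed by 0.13 between the genotypes, with mutant replicate 1 at 981 and WT replicate 1 at 880.4 above the other mice (680.5 to 693). Over the 10 licensing genes the median deviation from the WT mean was 0.39 in mutant replicate 1 and -0.07 in mutant replicate 2.

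The 6 fork genes had median deviations from the WT mean of 0.32 in mutant replicate 1 and -0.13 in mutant replicate 2. *Pcna* (probe set 1417947_at), the sliding clamp of the replicative polymerases, had signals of 5353 and 4451 in the mutant mice and 5346, 4401 and 4593 in the WT mice, a log2 difference of 0.04 (SE 0.11, adjusted p = 0.928). Mutant replicate 1 and WT replicate 1 were nearly equal and the other 3 mice lay lower. *Fen1* (probe set 1436454_x_at), the flap endonuclease that trims Okazaki fragments, gave 1104 and 743 against 999.7, 585 and 989, a log2 difference of 0.12 (SE 0.25, adjusted p = 0.89). WT replicate 2 was the lowest mouse and the other WT mice exceeded mutant replicate 2. *Rfc4* (probe set 1424321_at), a subunit of the clamp loader, gave 393 and 247 against 359, 285 and 289.8, a log2 difference of 0.01 (SE 0.21, adjusted p = 0.99). The mutant mice lay on either side of all WT mice, as they did for *Lig1*, the ligase that seals Okazaki fragments (log2 difference -0.04). *Rfc3*, a further clamp loader subunit, differed by 0.14 and *Prim1*, the catalytic primase subunit, by 0.18.

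Deoxynucleotide supply was represented by the ribonucleotide reductase subunits *Rrm1* and *Rrm2*, thymidylate synthase (*Tyms*) and thymidine kinase 1 (*Tk1*). *Tk1* (probe set 1416258_at) had the largest difference between the mutant mice of all 39 genes, with signals of 714 and 285 (2.5-fold), against 631, 325 and 349 in the WT mice. The log2 difference between the genotypes was 0.12 (SE 0.38, adjusted p = 0.93). High signals in mutant replicate 1 and WT replicate 1 stood apart from the other 3 mice, which lay between 285 and 349. *Rrm1* (probe set 1415878_at) gave 1478 and 1000.2 in the mutant mice and 1276, 904 and 1096 in the WT mice, a log2 difference of 0.17 (SE 0.18, adjusted p = 0.767). The same pair of mice was highest, with mutant replicate 1 first. *Rrm2* differed by 0.08, with the mutant mice on either side of the WT mice, and *Tyms* by 0.02, with WT replicate 1 highest.

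The 6 mitotic cyclins and kinases had median deviations from the WT mean of 0.62 in mutant replicate 1 and -0.26 in mutant replicate 2. *Cdk1* (probe set 1448314_at, listed under its older symbol Cdc2a), the kinase that starts mitosis, had signals of 1239 and 685 in the mutant mice and 818, 729 and 730 in the WT mice, a log2 difference of 0.28 (SE 0.21, adjusted p = 0.652). The mutant mice enclosed a WT range of 0.17 on the log2 scale. *Ccnb2* (probe set 1450920_at), a B-type cyclin partner of CDK1, gave 905 and 486 against 691, 669.6 and 556, a log2 difference of 0.06 (SE 0.23, adjusted p = 0.943). The high and low ends were again the mutant mice. *Ccna2* (probe set 1417910_at), the cyclin of S and G2 phase, gave 1039.9 and 697 against 725, 607 and 611, a log2 difference of 0.40 (SE 0.17, adjusted p = 0.454) with an unadjusted p of 0.0447. WT replicate 1 lay between the mutant mice, so that the genotypes overlapped. The other *Ccna2* probe set (1417911_at) gave 825 and 445 against 653, 536 and 655, a log2 difference of -0.02 (unadjusted p = 0.947 in limma).

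Polo-like kinase 1 and the Aurora kinases drive spindle assembly and chromosome alignment. *Plk1* (probe set 1448191_at) had signals of 299.8 and 151 in the mutant mice and 196, 187 and 198 in the WT mice, a log2 difference of 0.14 (SE 0.26, adjusted p = 0.882). The WT mice spanned 0.08 on the log2 scale, against 0.99 between the mutant mice. *Aurkb* (probe set 1424128_x_at), of the chromosomal passenger complex, gave 389 and 166 against 258, 266 and 241, a log2 difference of 0.00 (SE 0.30, adjusted p = 0.999). The 2 mutant signals, 2.34-fold apart, averaged to the WT level. *Aurka*, of the spindle poles, differed by 0.14, with a 1.51-fold difference between the mutant mice.

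Checkpoint and anaphase genes were highest in mutant replicate 1 and lowest in mutant replicate 2 in all 4 members, while the WT mice between them varied in order. *Bub1* (probe set 1424046_at), a kinetochore kinase of the spindle checkpoint, had signals of 257 and 103 in the mutant mice and 184, 189 and 155 in the WT mice, a log2 difference of -0.10 (SE 0.33, adjusted p = 0.932). The mutant mice were 2.48-fold apart, the largest such ratio of the mitotic genes. *Bub1b*, its checkpoint partner, differed by 0.07 between the genotypes, *Cdc20*, the activator of the anaphase-promoting complex, by 0.21, and *Ube2c*, the ubiquitin-conjugating enzyme of that complex, by 0.16. Mutant replicate 1 exceeded replicate 2 by 1.79-fold, 1.62-fold and 1.74-fold for these genes.

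All 8 spindle and chromosome genes were highest in mutant replicate 1 and lowest in mutant replicate 2. *Mki67* (probe set 1426817_at), which encodes the proliferation marker Ki-67, had signals of 1637 and 947 in the mutant mice and 1337, 1161 and 1119 in the WT mice, a log2 difference of 0.05 (SE 0.20, adjusted p = 0.945). *Top2a* (probe set 1454694_a_at), the topoisomerase that untangles sister chromosomes, gave 1866 and 965 against 1502, 1465 and 1426, a log2 difference of -0.13 (SE 0.22, adjusted p = 0.87). The WT mice spanned 0.07 on the log2 scale while the mutant mice were 1.93-fold apart. *Kif20a* (probe set 1449207_a_at), a kinesin of cytokinesis, gave 334 and 139 against 219, 149.8 and 164, a log2 difference of 0.29 (SE 0.34, adjusted p = 0.778). Mutant replicate 2 lay just under WT replicate 2. *Tpx2* (probe set 1428104_at), which activates Aurora A on the spindle, gave 324 and 150.4 against 250.3, 201 and 259, a log2 difference of -0.09 (SE 0.29, adjusted p = 0.93). WT replicates 1 and 3 were close together and above WT replicate 2. *Birc5* (probe set 1424278_a_at), which encodes survivin, gave 707 and 388 against 581, 401 and 414, a log2 difference of 0.19 (SE 0.25, adjusted p = 0.812). WT replicate 1 exceeded the other WT mice. The log2 differences of the remaining genes were 0.18 for *Kif11*, a kinesin that separates spindle poles, 0.23 for *Nusap1*, a spindle microtubule protein, and 0.06 for *Cenpf*, a kinetochore protein.

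*Foxm1*, the transcription factor that drives many G2 and mitotic genes, departed on its brightest probe set (1448833_at) from the order of most other mitotic genes. Its signals were 376 and 308 in the mutant mice and 296, 333 and 346 in the WT mice, a log2 difference of 0.07 (SE 0.15, adjusted p = 0.898). WT replicate 1 was the lowest mouse, and the mutant mice were 1.22-fold apart, the smallest ratio of the 19 mitotic genes. Other *Foxm1* probe sets did not repeat this order. Probe set 1448834_at gave 165 and 124 against 197, 153 and 105, with WT replicate 1 highest. Probe set 1417748_x_at was highest in mutant replicate 1 (300.2) and lowest in WT replicate 2 (165).

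**Figure D3:**
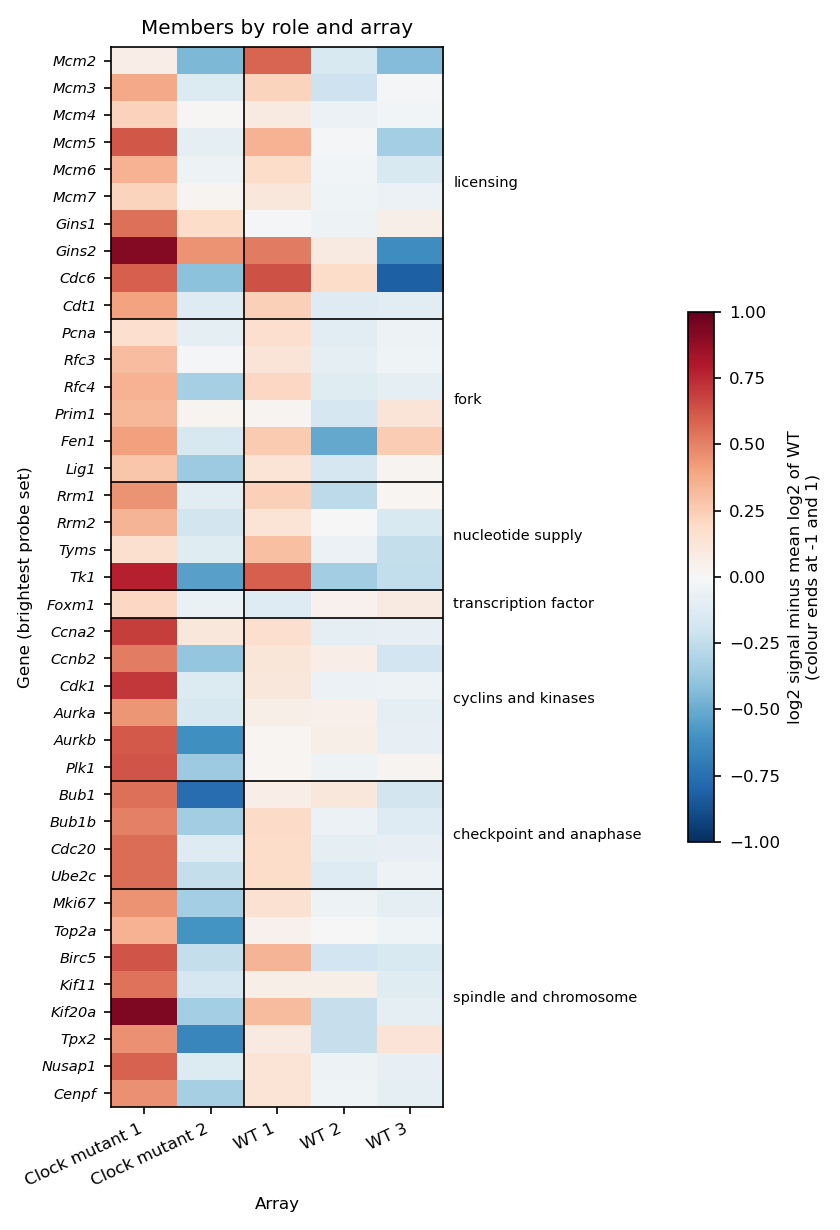
Log2 signal minus the mean log2 of the 3 WT arrays for each of the 39 genes (rows, by role) in each of the 5 arrays (columns), with red above and blue below the WT mean. The column of Clock mutant 1 is red for every gene, and that of Clock mutant 2 is blue for most mitotic genes and close to the WT mean for most licensing genes.

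Other probe sets of the same genes measure the same RNA with different probes. Of the 39 genes, 28 had further probe sets (49 in all), of which 19 for 14 S-phase genes and 14 for 9 mitotic genes passed the filter, and 0 of these had an adjusted or an unadjusted p under 0.05 in limma. Mutant replicate 1 exceeded replicate 2 on 18 of the 19 S-phase and 13 of the 14 mitotic probe sets, by a median of 0.39 and 0.70 on the log2 scale. The ends of the order were less uniform. Of the 14 mitotic probe sets, 8 were highest in mutant replicate 1, 8 were lowest in mutant replicate 2 and 6 were both, against 17 of 19 that were both among the brightest. Of the 19 S-phase probe sets, 13 were highest in mutant replicate 1, 8 were lowest in mutant replicate 2 and 7 were both. Among the brightest S-phase probe sets 4 of 20 were both, so the classes were more alike in this count on the other probe sets. The sign of the difference between the genotypes also varied: it matched that of the brightest probe set on 14 of the 19 S-phase probe sets and on 6 of the 14 mitotic probe sets. For *Mcm2* the other probe set gave 498 and 315 in the mutant mice and 483, 351 and 348 in the WT mice, with mutant replicate 1 and not WT replicate 1 highest. The brightest probe set ends in _s_at or _x_at for 9 genes (*Mcm2*, *Mcm3*, *Mcm5*, *Mcm7*, *Rrm2*, *Gins2*, *Fen1*, *Aurkb* and *Cdc20*), suffixes by which Affymetrix marks probes that may also detect other transcripts.

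A probe set of *Cdc20* (1439394_x_at) that fell under the filter gave 85.4 and 44 in the mutant mice and 7.48, 5.97 and 7.55 in the WT mice, a log2 difference of 3.14 that was not tested. The other 2 *Cdc20* probe sets differed by 0.21 and 0.20, so the dim probe set did not follow them. With the mean of all probe sets of a gene, which takes in the dim one, the *Cdc20* difference was 1.18 (adjusted p = 0.159 in limma). This probe set was singled out after its values were seen.

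Other genes of replication and mitosis were read from the same fit. Of 43 other replication genes, 39 were tested, 0 were called, and the median log2 difference between the genotypes was 0.11. Mutant replicate 1 exceeded replicate 2 for 36 of the 39, by a median of 0.29. It was highest for 27 of the 39, mutant replicate 2 was lowest for 12, and the WT mice were enclosed for 5. Mutant replicate 1 and WT replicate 1 held the highest pair of signals for 18 of the 39. That pair was thus less frequent than among the S-phase genes (18 of 20). An unadjusted p under 0.05 was found for 2 genes, against 10.8% of all probe sets. *Tipin*, a fork protection factor, had a log2 difference of 0.35 (unadjusted p = 0.0373, adjusted p = 0.44 by limma). *Pole2*, a subunit of polymerase epsilon, had one of 0.37 (unadjusted p = 0.0425, adjusted p = 0.45 by limma).

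Of 59 other mitosis genes, 55 were tested (*Ccnb1* was not analysed here), 0 were called, and the median log2 difference was 0.09. As with the 19 mitotic genes, mutant replicate 1 was highest for most of them (45 of 55) and mutant replicate 2 lowest for 34. The WT mice were enclosed for 27, and the median difference between the mutant mice was 0.71. Mutant replicate 1 and WT replicate 1 held the highest pair of signals for 32 of the 55. *Tacc3* and *Smc4* were the genes of the 55 with an unadjusted p under 0.05 in limma, against 10.8% of all probe sets. *Tacc3*, a spindle microtubule protein, had signals of 336 and 324 in the mutant mice and 201, 207 and 252 in the WT mice (log2 difference 0.59, SE 0.16, unadjusted p = 0.0052, adjusted p = 0.3). Its mutant mice were close together and above every WT mouse, unlike those of the 19 mitotic genes. *Smc4*, a condensin subunit, had 2022 and 1984 against 2305, 2432 and 2234 (log2 difference -0.21, SE 0.08, unadjusted p = 0.0287, adjusted p = 0.413). Both mutant mice lay below every WT mouse.

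Growing hair follicle markers moved with mutant replicate 1 as well. The 17 measured of 18 markers (keratins and other proteins of the inner root sheath and hair shaft, and regulators of the matrix) had summed signals of 10437 and 2329 in mutant replicates 1 and 2 and 2324, 1343 and 1386 in WT replicates 1, 2 and 3. None was listed at 0, 4 fell under the filter, and 12 of the 13 tested were highest in mutant replicate 1, with a median difference between the mutant mice of 1.66 on the log2 scale. Between the genotypes, 0 of these 13 had an adjusted p under 0.05 in limma. An unadjusted p under 0.05 was found for 8 of the 13, against 10.8% of all probe sets. *Krt25*, an inner root sheath keratin, had 1932 and 227 in the mutant mice and 283, 34.3 and 56 in the WT mice. Its difference between the mutant mice, 3.09, was the largest of the 13 tested. The regulators *Msx2*, *Hoxc13*, *Foxn1* and *Shh* differed less between the mutant mice, by 0.54, 0.52, 0.15 and 0.74. Their log2 differences between the genotypes were 0.13, 0.23, -0.05 and 0.39. Mutant replicate 2 was not low for the growing follicle markers. Its median deviation from the WT mean was 0.47 for them against -0.33 for the mitotic genes. The 4 melanocyte markers were lowest in mutant replicate 2 (4 of 4, against 16.5% of all probe sets). Their summed signals were 2312 and 1529.9 in the mutant mice and 2312, 1943 and 2072 in the WT mice. The part of these cells in the spread of the 39 genes was not tested. The high follicle marker signals of mutant replicate 1 came from skin that the authors staged as telogen, like that of the other mice. The paper also describes wild-type follicles of this age in an early growth stage (anagen I). Whether the hair cycle stage differed between mutant replicate 1 and the other mice was not tested.

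Markers of the skin's main cell types were present in all 5 arrays, as the label of dorsal skin implies. Summed signals of the 6 basal keratinocyte markers lay between 40757 and 45583 over the 5 arrays and those of the 6 fibroblast markers between 103969.9 and 114120.4. Median differences between the mutant mice were -0.12 for basal keratinocyte, -0.07 for suprabasal keratinocyte, 0.04 for hair germ and bulge and 0.05 for fibroblast markers. The same difference had medians of 0.21 over 4 adipocyte, 0.10 over 6 muscle, 0.08 over 4 endothelial and 0.02 over 3 leukocyte markers. Over the 4 melanocyte markers it was larger, 0.70, and the mutant mice enclosed the WT mice for 3 of the 4, against 4.55% of all probe sets. Mutant replicate 2 lay below every WT mouse for 3 of the 4 adipocyte markers, with a median deviation of -0.34. It did so for 5 of the 6 muscle markers, with one of -0.12, against 26.4% of all probe sets. The log2 differences of the muscle markers between the genotypes were small, from -0.11 to 0.01. *Cidec* and *Fabp4*, a lipid droplet protein and a fatty acid carrier of adipocytes, differed between the genotypes by -0.36 and -0.18 (adjusted p = 0.339 and 0.416 in limma), and both had an unadjusted p under 0.05. The other adipocyte markers tested, *Adipoq* and *Lep*, differed by -0.04 and 0.12. An unadjusted p under 0.05 in limma was also found for endothelial *Tek* (0.41), suprabasal *Krt1* (0.31) and *Flg* (-0.26), and *Cd34* of the bulge (-0.17). None of these had an adjusted p under 0.05. An unadjusted p under 0.05 was found for 10.8% of all tested probe sets. It was found for 0 of the basal keratinocyte, fibroblast, muscle, leukocyte and melanocyte markers tested. The part of these markers in the order of the replication and mitosis genes was not tested. Correlations of log2 signal over the tested probe sets were 0.973 to 0.982 for the 4 pairs that include mutant replicate 1 and 0.983 to 0.987 for the 6 pairs of the other mice. The ratio of 3′ to 5′ signal of the pyruvate carboxylase control probes was 54.1 in mutant replicate 1 and 19.1 to 28.1 in the other mice, and that of *Gapdh* was 0.86 to 1.05. The pyruvate carboxylase 5′ signals were dim, at 40.4 to 97.3. The transferrin receptor ratio was 8.09 in mutant replicate 1 and 7.71 to 14.3 in the other mice. That of beta-actin was 1.21 and 1.14 to 1.23. Mutant replicate 1 was also the only male, so sex cannot be told apart from that mouse, and the part of the 3′ to 5′ ratio was not tested.

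**Figure D4:**
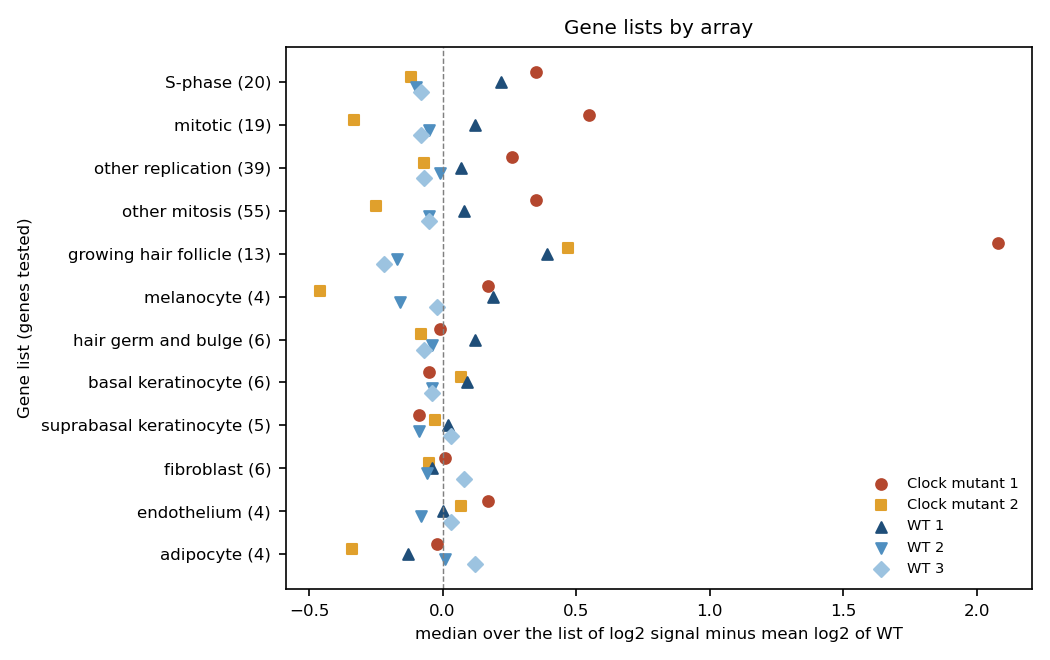
Median over each gene list of log2 signal minus the mean log2 of the 3 WT arrays, by array, with the number of genes tested in brackets. Clock mutant 1 lies highest for the replication and mitosis lists and reaches 2.08 for growing hair follicle markers. In Clock mutant 2, melanocyte markers lie at -0.46 and adipocyte markers at -0.34. Keratinocyte and fibroblast markers stay near 0 in all 5 arrays.

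The genotype comparison therefore depended on which mutant mouse was kept. Without mutant replicate 1, when all mice compared were female, the median log2 difference was -0.12 over the S-phase genes and -0.33 over the mitotic genes, and 15 of 20 and 18 of 19 were below 0. At an unadjusted p under 0.05, 6 of the 39 genes were then lower in the mutant mouse (*Mki67*, *Top2a*, *Ccnb2*, *Aurkb*, *Bub1* and *Tpx2*), against 6.47% of all probe sets, and 0 had an adjusted p under 0.05 (0.0481% of probe sets). Without mutant replicate 2, the medians were 0.35 and 0.55, all 39 genes were above 0, and 24 had an unadjusted p under 0.05 (16.8% of probe sets), 8 S-phase and 16 mitotic. Again 0 had an adjusted p under 0.05, against 0.744% of probe sets, and the smallest of the 39 was 0.057. In these fits limma takes the lone mutant mouse to vary like the WT mice.

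**Figure D5:**
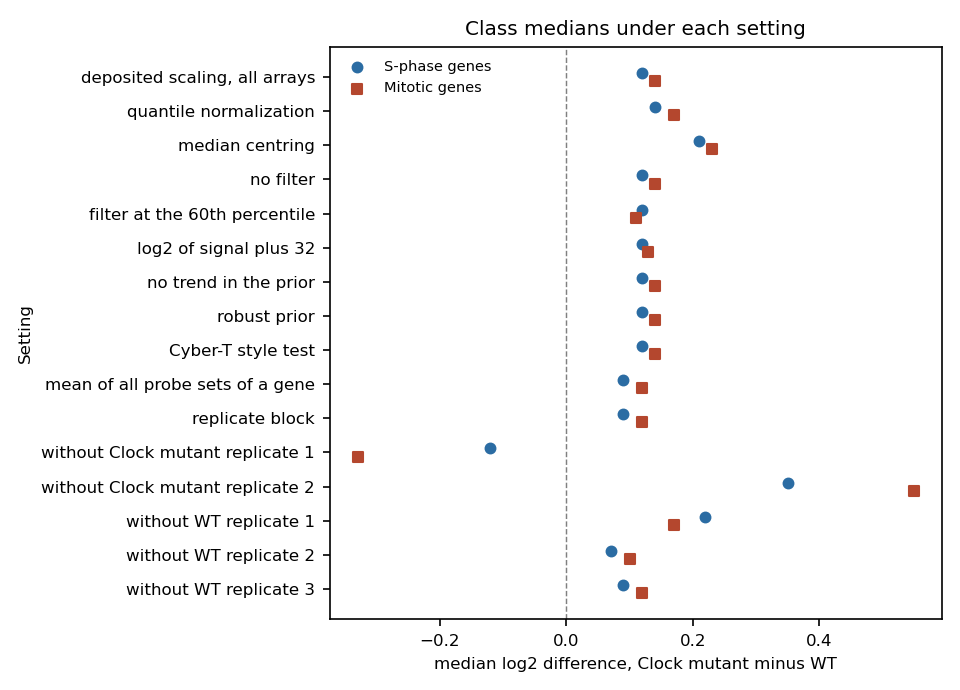
Median log2 difference, Clock mutant minus WT, over the S-phase genes (circles) and the mitotic genes (squares) under each processing setting and with each array left out. Both medians are above 0 in every setting plotted except without Clock mutant replicate 1, where they are -0.12 and -0.33.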

How the data were processed

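Signal intensities, 1 per probe set and array, were deposited by the authors, made with MAS5 (per the labels, no version given), which scales each array by 1 factor, and each array had a trimmed mean of 500. Scanner files were not used here, and 0 further columns of sample values were left out.

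The table held 45101 probe sets, of which 64 controls were left out. Names came from the platform annotation (34945 probe sets with 1 symbol, 932 with several, 9160 unnamed here). Intensities under 1 (2441 values) were set to 1, log2 was taken, and probe sets with a mean under the 40th percentile (a signal of 56.7) were left out, which left 27022 tested. The genotype test was that of limma 3.58.1 under R 4.3.3 (lmFit, then eBayes with an intensity trend, prior df 6.04, two-sided), and p values were adjusted by Benjamini-Hochberg across the tested probe sets. The fit was tested on simulated data. For the *Clock* arrays no test is stated in the study's methods. The spread of array medians (0.16 in log2) did not reach the 0.2 at which quantile normalization would have been used. The labels call the mice biological replicates. Array number limits the precision, and no counting interval applies.

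The 39 genes and the lists were chosen with earlier results of these data known. Every gene was named with its log2 difference. Signals by array were given for the 8 S-phase and 8 mitotic genes with the largest range, for *Mcm2*, *Pcna*, *Mki67*, *Top2a* and *Cdk1*, and in part for others. From the lists of other replication and other mitosis genes, those with an unadjusted p under 0.05 were named. As alternatives, arrays were quantile normalized or median centred, the filter was dropped or set at the 60th percentile, and the following were tried: log2 of signal plus 32, a prior without trend or robust, a Cyber-T style test (101 probe sets per window, prior weight 10), which the study's methods name for its *Bmal1* arrays, the mean of all probe sets of a gene, the replicate block and each array left out. Python 3.11.15 and pandas 2.3.3 made the summaries. Promoter sequences came from RefSeq (GRCm38.p6).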

Additional observations from a re-analysis of the deposited data

How the results depend on the processing

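No gene of the 39 had an adjusted p under 0.05 by limma or the Cyber-T style test in any setting run. At an unadjusted p under 0.05 there were 0 to 6 of them except without mutant replicate 2 (24), with the mean of all probe sets not counted. Outside the leave-one-out fits, the S-phase median stayed between 0.09 and 0.21 and the mitotic median between 0.11 and 0.23. Leaving out each array in turn, the S-phase median ranged from -0.12 to 0.35 and the mitotic median from -0.33 to 0.55. Both lowest values came without mutant replicate 1 and both highest without mutant replicate 2. The number of probe sets called, 24, was 10 with no filter, 0 with no trend in the prior, 337 in the Cyber-T style test, 106 with the replicate block and 0 to 201 leaving out each array, 0 without WT replicate 2 or 3, 13 without mutant replicate 1 and 201 without mutant replicate 2. Where it was 0, limma gave 2631, 1581 and 2194 at an unadjusted p under 0.05 with no trend, without WT replicate 2 and without WT replicate 3. The causes were not tested. The labels do not say whether the replicate numbers pair the mice. Correlations of the deviations of same-numbered mice were 0.0078 and 0.0986. They cannot decide pairing, since deviations of 2 mutant mice from their own mean mirror each other. The block is given as a number only.

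Single genes changed the sign of their log2 difference as follows. *Aurkb* was 0.05 after quantile normalization, 0.09 after median centring, 0.01 with 32 added and 0.04 with the mean of all probe sets. *Lig1* was 0.05 after median centring. With the mean of all probe sets of a gene (32 genes tested), *Mcm4* was -0.11, *Mcm5* -0.54, *Rrm1* -0.02, *Bub1b* -0.07 and *Nusap1* -0.03. In that setting *Cdc20* kept its sign but went from 0.21 to 1.18 (adjusted p = 0.159), and *Ccna2* from 0.40 to 0.19. With the replicate block, *Tyms* was -0.10, *Tk1* 0.00, *Cdc6* -0.31, *Rfc4* -0.04, *Mki67* 0.00 and *Ccnb2* -0.04. Leaving out each array, the log2 difference ranged over *Mcm2* -0.45 to 0.10, *Mcm3* -0.14 to 0.38, *Mcm5* -0.09 to 0.62, *Mcm6* -0.05 to 0.35, *Pcna* -0.10 to 0.17, *Rrm1* -0.11 to 0.45, *Rrm2* -0.18 to 0.34, *Tyms* -0.12 to 0.17, *Tk1* -0.54 to 0.78. It also ranged over *Cdc6* -0.41 to 0.60, *Cdt1* -0.13 to 0.40, *Rfc3* -0.02 to 0.31, *Rfc4* -0.33 to 0.35, *Fen1* -0.16 to 0.41, *Lig1* -0.36 to 0.28, *Mki67* -0.34 to 0.45, *Top2a* -0.60 to 0.35, *Ccnb2* -0.39 to 0.51. The other genes that changed sign ranged over *Cdk1* -0.14 to 0.71, *Aurka* -0.16 to 0.44, *Aurkb* -0.61 to 0.61, *Bub1* -0.76 to 0.55, *Bub1b* -0.35 to 0.50, *Plk1* -0.36 to 0.63, *Cdc20* -0.13 to 0.56, *Birc5* -0.24 to 0.63, *Kif11* -0.17 to 0.54, *Kif20a* -0.34 to 0.93, *Tpx2* -0.65 to 0.46, *Ube2c* -0.24 to 0.56, *Nusap1* -0.14 to 0.59, *Cenpf* -0.33 to 0.46, *Foxm1* -0.07 to 0.21. The 6 genes that kept their sign ranged over *Mcm4* 0.01 to 0.23, *Mcm7* 0.03 to 0.22, *Prim1* 0.03 to 0.33, *Gins1* 0.18 to 0.55 and *Ccna2* 0.11 to 0.69, and *Gins2* 0.38 (without WT replicate 3) to 0.95 (without WT replicate 1). The first 5 were lowest without mutant replicate 1 and highest without mutant replicate 2. Without mutant replicate 1, 27 of the 39 genes changed sign. Signals near the filter, such as those of *Cdc6* and *Tyms*, limit what can be resolved.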
